A study of Mus musculus with 12 samples.

Results

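The ELAV-like and NOVA genes encode RNA-binding proteins, and 6 of them were followed among the 36255 genes of a mouse RNA-seq count table: Elavl1, Elavl2, Elavl3, Elavl4, Nova1 and Nova2. They were chosen by name, as the neuronal members of both families together with Elavl1, the broadly expressed relative of the neuronal ELAV genes. This choice and that of the gene lists below were made with earlier results of these data known. All 6 passed the low-count filters of both model fits used below. The labels give the material as mouse embryo and the molecule as polyadenylated RNA, whereas the series' design text speaks of embryonic stem cells and embryoid bodies with or without Skp1. Skp1 is the adaptor subunit that joins F-box proteins to the SCF ubiquitin ligase. The table has 11 libraries in 6 groups, and each group has a lot 1 and a lot 2 library unless stated. Wild type (wt) was sampled at 9.0 days post coitum (dpc) and at 9.5 dpc, and at 9.5 dpc also with the label PI. Libraries labelled Skp1acont and Skp1aKO come from 9.5 dpc, and 1 library of 9.5 dpc carries the labels Skp1acont and PI. The lot 2 library of that last group was not analysed here. The labels do not spell out PI, mb or cont, name no strain, allele or driver, and do not say whether each library is an embryo of its own, so the p-values rest on a spread between libraries that may be technical.

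ELAV-like proteins bind AU-rich and U-rich stretches of mRNAs, where they slow decay and can change splicing and translation. Elavl1 (HuR) is made in most cells, while Elavl2 (HuB), Elavl3 (HuC) and Elavl4 (HuD) are hallmarks of postmitotic neurons, and Elavl2 is also made in the germ line. NOVA proteins bind clusters of YCAY motifs and control alternative splicing in neurons, with Nova1 known best from hindbrain and spinal cord and Nova2 from the forebrain. Counts per gene show neither splicing nor decay, so only the amount of each mRNA is described here.

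On GRCm38 with the GENCODE M21 annotation, Elavl1 (ENSMUSG00000040028.10) lies on chromosome 8 at 4285382 to 4325413, minus strand, and its exons cover 10363 bases. Elavl2 (ENSMUSG00000008489.18) lies on chromosome 4 at 91250763 to 91400785, minus strand, with 8313 exonic bases. Elavl3 (ENSMUSG00000003410.8) lies on chromosome 9 at 22015005 to 22052023, minus strand, with 6890 exonic bases. Elavl4 (ENSMUSG00000028546.17) lies on chromosome 4 at 110203722 to 110351909, minus strand, with 5387 exonic bases. Nova1 (ENSMUSG00000021047.7) lies on chromosome 12 at 46694517 to 46818929, minus strand, with 8747 exonic bases. Nova2 (ENSMUSG00000030411.16) lies on chromosome 7 at 18925888 to 18965319, plus strand, with 8372 exonic bases. Exons of Elavl1 overlap 204 bases of the opposite-strand gene Ccl25, whose highest count was 179, and exons of Nova2 overlap 2652 bases of the opposite-strand lincRNA Gm26821, which has no row in the table. The use of strand in counting is not stated in the labels, so reads from these overlaps cannot be assigned to a strand.

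Elavl2, Elavl3 and Elavl4 changed in the same direction in each wild-type comparison below. The 250 bases before a start of Elavl3 and of Elavl4 are printed to show what these proximal promoters hold. Both printed windows hold letters marked below, and the windows of Elavl2 do not. The sequences are from RefSeq on GRCm38.p6, read 5′ to 3′ on the gene's strand. Capitals mark the letters CAGCTG or CAGATG, the forms of the E-box motif that proneural and NeuroD-type basic helix-loop-helix factors are known to bind, searched on both strands.
Elavl3 promoter, chr9:22052024-22052273, minus strand: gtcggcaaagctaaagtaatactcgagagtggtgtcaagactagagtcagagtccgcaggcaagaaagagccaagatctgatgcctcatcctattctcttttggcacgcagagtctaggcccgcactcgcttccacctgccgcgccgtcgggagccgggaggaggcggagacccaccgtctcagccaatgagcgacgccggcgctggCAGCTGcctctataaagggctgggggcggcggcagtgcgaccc
Elavl4 promoter at an internal start, chr4:110287528-110287777, minus strand: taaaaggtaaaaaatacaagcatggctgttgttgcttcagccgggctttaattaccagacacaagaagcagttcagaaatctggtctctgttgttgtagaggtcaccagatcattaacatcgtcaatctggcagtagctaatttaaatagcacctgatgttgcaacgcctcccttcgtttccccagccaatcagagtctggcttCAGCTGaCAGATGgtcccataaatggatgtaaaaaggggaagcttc
The Elavl3 window had CAGCTG beginning 43 bases before the start, and the Elavl4 window had CAGCTG 46 bases and CAGATG 39 bases before the start. CAGCTG was in 13.0% and CAGATG in 14.4% of 32851 RefSeq promoter windows of this length, and 25.5% held at least 1 of them. These shares are for single windows, whereas the printed Elavl4 window is 1 of 4 of that gene. GC content was 61.6% in the Elavl3 window and 44.0% in the Elavl4 window, beside a median of 52.4% over all windows. The Nova1 window held CAGCTG 193 bases before its start. The windows of Elavl1, Elavl2 and Nova2 and that of the most upstream Elavl4 start held neither motif. A match describes letters in a window and was not tested as a binding site.

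Total counts were 3392251 to 11607085 in the 6 wt libraries and 2320599 to 4203553 in the 5 libraries with a Skp1a label. The Skp1a-labelled libraries stood apart in other ways too. Mitochondrial transcripts took 5.98% to 15.8% of their counts, against 2.44% to 4.01% in wt. The median level per kilobase of 1496 chemoreceptor genes, which the embryo should hardly transcribe and which gauges counts spread over the genome, was 3.04 to 14.4 times that of the lowest wt library, against 1.00 to 1.73 times in wt. The library labelled Skp1acont lot 2 had the highest value. The targeted gene, Skp1a, stood at 930 to 1337 CPM (counts scaled to a common library size) in wt and at 199 and 212 CPM in the libraries labelled Skp1aKO. It was also below wt in the libraries labelled Skp1acont, at 303 and 104 CPM, and in the library labelled Skp1acont PI, at 273 CPM. The Skp1a levels of the cont and KO labels overlapped, so these names stand below for what the libraries are labelled, and every direction that involves them is a direction between libraries so labelled. CPM here are scaled by the TMM method over all 11 libraries.

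**Figure D1:**
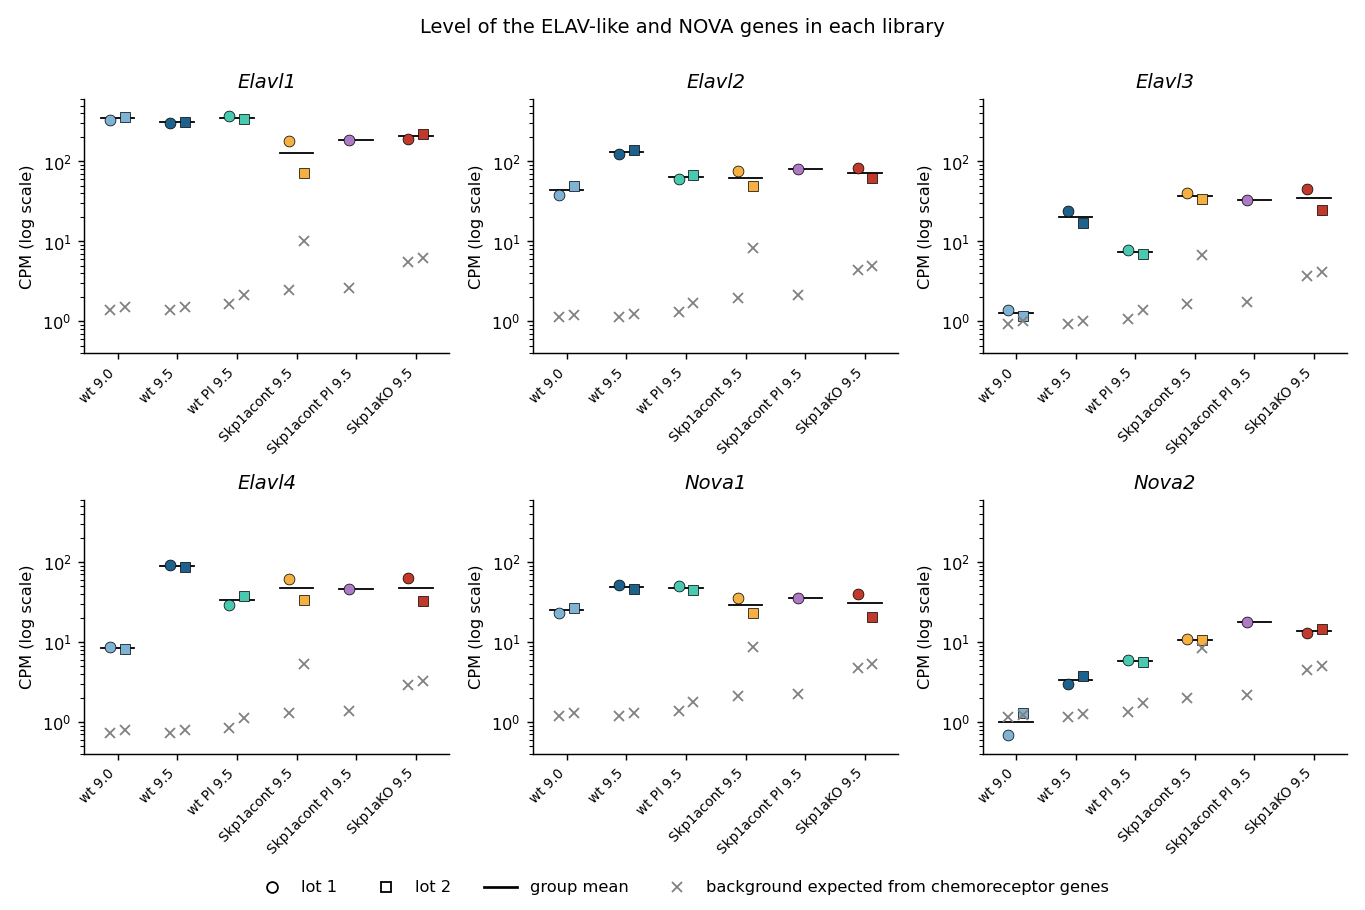
CPM of each gene (log axis) in each library, by group, with circles for lot 1, squares for lot 2, a bar at the group mean and grey crosses at the level expected from the chemoreceptor background. Elavl1 lies between 301 and 371 CPM in every wt library, Elavl3 and Nova2 sit near the background at 9.0 dpc, and Nova2 rises over the groups from left to right except for the last.

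The first comparison asks how these genes differ between wild-type embryos of 9.5 and 9.0 dpc. The neuronal genes were higher at 9.5 dpc and Elavl1 was not detectably different: 5 of the 6 genes passed the test, all of them higher, where 15% of the 13126 genes tested were called higher, 16.7% lower and 31.7% in either direction. Of all calls 47.2% were higher, and 64.0% with library totals in place of TMM. Tests are edgeR's quasi-likelihood test with Benjamini-Hochberg adjustment over all genes tested, called at an adjusted p under 0.05, and changes are log2 fold changes with their standard error (SE).

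Elavl2 stood at 38.1 and 50.02 CPM at 9.0 dpc and at 125 and 138 CPM at 9.5 dpc. Its change was 1.60 ± 0.14 (adjusted p = 4.4e-05, edgeR). Elavl3, a general marker of differentiated neurons, stood at 1.38 and 1.19 CPM at 9.0 dpc and at 24.2 and 16.8 CPM at 9.5 dpc. These are 4 and 10 reads against 66 and 124, and the chemoreceptor background would account for 67.7% and 85.3% of the reads at 9.0 dpc. The ratio of the pooled counts per effective library size was 15.2, with an exact 95% interval of 8.84 to 28.3 that covers counting error only. The fitted change of Elavl3 was 4.02 ± 0.31 (adjusted p = 2.37e-05, edgeR), and 6.61 after the expected background was subtracted. Elavl4, which marks early neurons as they leave the cell cycle, stood at 8.65 and 8.06 CPM and then at 90.7 and 86.6 CPM. It changed by 3.45 ± 0.16 (adjusted p = 1.85e-06, edgeR). The libraries of the 2 stages did not overlap for any of these 3 genes. With 2 libraries a group, such a separation allows no exact two-sided p below 0.333, and its share over all genes was not taken.

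Both NOVA genes were also higher. Nova1 stood at 23.2 and 26.3 CPM at 9.0 dpc and at 52.1 and 45.2 CPM at 9.5 dpc, a change of 0.99 ± 0.14 (adjusted p = 0.000644, edgeR). Nova2 stood at 0.692 and 1.30 CPM, or 2 and 11 reads, and then at 2.94 and 3.79 CPM, or 8 and 28 reads. At 2 reads the lot 1 library was under the 3 reads taken as the floor of detection. The background would account for 164% and 94.2% of the Nova2 reads at 9.0 dpc, so no level above background was detectable there. Its change was 1.64 ± 0.41 (adjusted p = 0.0127, edgeR), the ratio of pooled counts was 3.10 (exact 95% interval 1.61 to 6.37), and the change after background subtraction was 4.43. The Nova2 call was lost with DESeq2's Wald test (adjusted p = 0.119), without the wt 9.0 lot 1 library (0.0525) and without the wt 9.5 lot 2 library (0.116), within a range of 0.00412 to 0.119 over 12 other settings. Elavl1 stood at 330 and 359 CPM at 9.0 dpc and at 301 and 316 CPM at 9.5 dpc, a change of -0.13 ± 0.10 (adjusted p = 0.344, edgeR). Where all 11 libraries shared the estimate of the spread, Elavl3 (adjusted p = 0.0039) and Elavl4 (0.00666) were still called, and Elavl2 (0.057), Nova2 (0.0866) and Nova1 (0.309) were not.

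**Figure D2:**
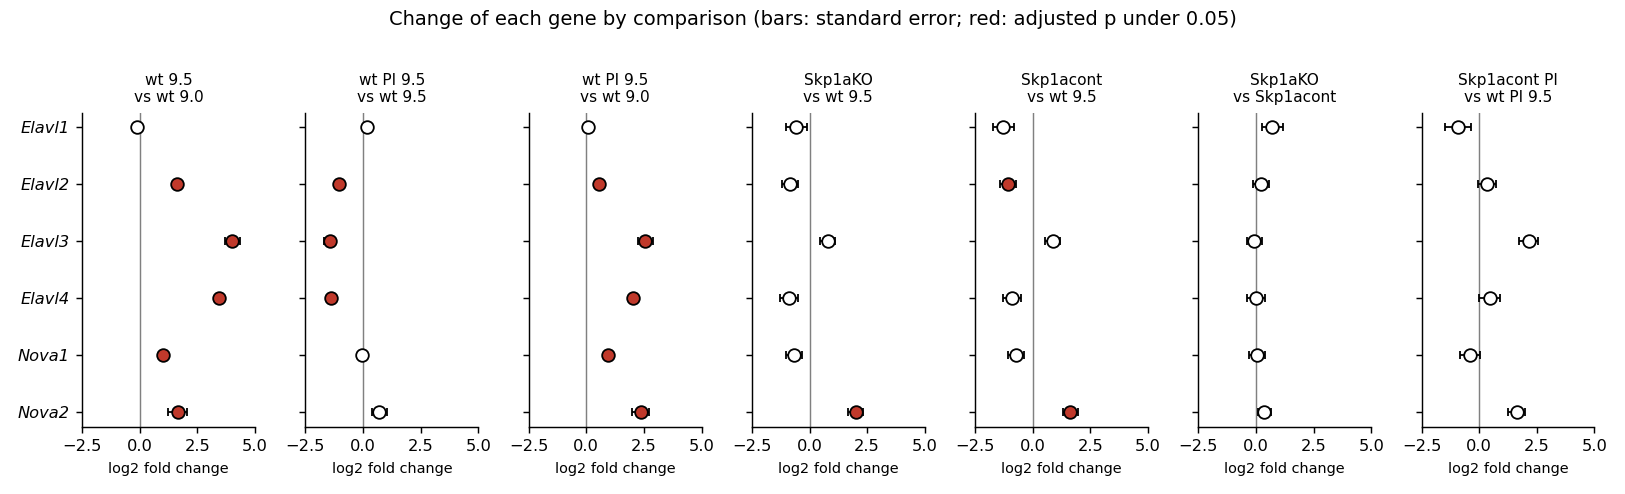
Log2 fold change of each gene (x axis) in the 7 comparisons, with bars of 1 SE and red points where the adjusted p was under 0.05. The neuronal genes lie to the right of 0 at 9.5 against 9.0 dpc, the neuronal ELAV genes lie to its left in wt PI against wt at 9.5 dpc, and Nova2 is the gene called higher in both Skp1a-labelled groups against wt.

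Per kilobase of exon, Elavl1 was the most abundant of the 6 genes in wild type, at 33.3 ± 1.96 CPM per kilobase at 9.0 dpc (SD, n = 2) and 29.7 ± 1.02 at 9.5 dpc (SD, n = 2). At 9.0 dpc Elavl2 followed with 5.30 ± 1.02, Nova1 with 2.83 ± 0.25 and Elavl4 with 1.55 ± 0.08 CPM per kilobase (SD, n = 2 each). By 9.5 dpc Elavl4 had reached 16.4 ± 0.54 and Elavl2 15.8 ± 1.08 CPM per kilobase, levels whose ranges overlap between the libraries, while Nova1 stood at 5.56 ± 0.56, Elavl3 at 2.98 ± 0.77 and Nova2 at 0.402 ± 0.072 (SD, n = 2 each). The summed level of Elavl2, Elavl3 and Elavl4 relative to Elavl1 within the same library, a ratio that does not depend on scaling between libraries, went from 0.200 and 0.222 at 9.0 dpc to 1.22 and 1.15 at 9.5 dpc. Among the 3 neuronal ELAV genes, the share of Elavl2 was 71.7% and 78.3% at 9.0 dpc and 42.5% and 47.2% at 9.5 dpc. The share of Elavl4 went the other way, from 25.1% and 19.5% to 47.6% and 45.8%. The neuronal ELAV pool was thus mostly Elavl2 mRNA at 9.0 dpc and split between Elavl2 and Elavl4 at 9.5 dpc. These ratios have 2 libraries a group, which allows no exact two-sided p below 0.333, and were not tested.

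Markers of neurons moved with these genes. All 12 of 12 neuron markers were called higher at 9.5 dpc, with a median change of 3.76 beside -0.02 over all genes tested, and their summed level went from 107 and 128 to 948 and 1000 CPM. At 9.0 dpc Nhlh1, a transcription factor of newborn neurons, had 0 reads in both libraries, which allows up to 0.749 and 0.258 CPM of the library totals. The summed level of the neuronal ELAV genes was 44.98% and 46.4% of that of the markers at 9.0 dpc and 25.3% and 24.1% at 9.5 dpc. Other cell types shifted too: 8 of 10 neural progenitor markers were called higher, and 4 of 5 surface ectoderm markers tested were called lower. The surface ectoderm sum went from 222 and 230 to 30.8 and 42.2 CPM. Of 8 erythroid markers 4 were called higher and none lower, and of 6 mesenchyme markers 4 were called higher and 2 lower. Of 8 tested cranial ganglion and neural crest markers 3 were called higher and 3 lower. In bulk samples, a change in the number of cells of a type and a change in RNA per cell cannot be told apart.

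Of 12 other neuronal RNA-binding regulators, 9 were tested and 5 were called higher and none lower. Srrm4, a splicing activator of neuronal microexons, stood at 1.73 and 2.13 CPM at 9.0 dpc and at 16.5 and 15.4 CPM at 9.5 dpc, a change of 3.003 ± 0.24 (adjusted p = 2.9e-05, edgeR). Celf4, a neuronal CELF family protein, changed by 1.52 ± 0.19 (adjusted p = 0.000357, edgeR). Among 34 tested broadly expressed and progenitor RNA-binding regulators, 6 were called higher and 6 lower, with a median change of -0.08. Lin28a, which blocks let-7 maturation in early cells, fell from 77.5 and 93.2 CPM to 15.0 and 17.4 CPM, and Ptbp1, the repressor of neuronal exons, fell from 56.0 and 62.3 CPM to 22.4 and 28.5 CPM. Among 12 tested mRNAs known to be bound by ELAV-like proteins, 5 were called higher and 2 lower. Map1b, a microtubule-associated protein of growing axons, rose by 1.28 ± 0.11 (adjusted p = 4.08e-05, edgeR), while Myc fell by 1.24 on the log2 scale with an SE of 0.11. Nrn1, an extracellular growth factor of neurons, had 1 read in each 9.0 dpc library and 37 and 85 reads at 9.5 dpc. Among 7 tested genes whose exons NOVA proteins are known to regulate, Dcc, the netrin receptor, was the single call, at 10.03 and 9.72 CPM and then 43.7 and 42.7 CPM.

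The next comparison sets wild-type embryos of 9.5 dpc labelled PI beside those without the label. The neuronal ELAV genes were lower with the label and the NOVA genes and Elavl1 were not detectably different: 3 of 6 genes were called, all lower, where 12.4% of genes tested were called lower and 28% in either direction. Elavl2 stood at 59.6 and 68.3 CPM with the label, against 125 and 138 CPM without it, a change of -1.04 ± 0.14 (adjusted p = 0.000715, edgeR). Elavl3 stood at 7.93 and 6.99 CPM, below the 24.2 and 16.8 CPM without the label, a change of -1.46 ± 0.24 (adjusted p = 0.00225, edgeR). Elavl4 stood at 28.6 and 37.6 CPM, below 90.7 and 86.6 CPM, a change of -1.41 ± 0.14 (adjusted p = 0.000253, edgeR). For these 3 genes the libraries of the groups did not overlap, and the share of all genes without overlap here was not taken. Nova1 stood at 49.6 and 45.1 CPM, a change of -0.05 ± 0.13 (adjusted p = 0.913, edgeR). Nova2 stood at 5.86 and 5.59 CPM, above the 2.94 and 3.79 CPM without the label, but its change of 0.71 ± 0.33 did not pass (adjusted p = 0.138, edgeR). Elavl1 stood at 371 and 338 CPM (0.19 ± 0.10, adjusted p = 0.168, edgeR). None of the 6 was called where all 11 libraries shared the estimate of the spread, with adjusted p of 0.245 for Elavl3, 0.311 for Elavl4 and 0.395 for Elavl2, and 13 of 18837 genes were called by that fit.

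With the PI label the neuronal ELAV genes summed to 0.381 and 0.497 of the level of Elavl1 per kilobase, between the ratios of wt at 9.0 and at 9.5 dpc. Elavl2 made up 52.6% and 50.7% of the neuronal ELAV pool, between its shares in wt 9.5 (42.5% and 47.2%) and wt 9.0 (71.7% and 78.3%). Elavl4 made up 39.0% and 43.1%, between its shares in wt 9.5 (47.6% and 45.8%) and wt 9.0 (25.1% and 19.5%). Both shares lay nearer to those of wt 9.5. Of 12 neuron markers 10 were called lower and none higher, with a median change of -1.59 beside 0.01 over all genes, and they summed to 339 and 332 CPM. Other marker lists moved with the label as well: 8 of 10 neural progenitor markers were called lower, their sum going from 3406 and 2946 to 1475 and 1394 CPM, as were 4 of 8 erythroid markers (9411 and 11885 CPM with the label) and 3 of 6 mesenchyme markers (366 and 344 CPM, against 567 and 515). Of 8 tested cranial ganglion and neural crest markers 3 were called lower and 1 higher, and of 5 tested surface ectoderm markers 2 were called higher. The part of these shifts in the lower ELAV levels was not tested. Of 9 tested other neuronal RNA-binding regulators 3 were called lower, among them Celf4 (-0.89 ± 0.18, adjusted p = 0.00563, edgeR) and Srrm4 (-0.90 ± 0.20, adjusted p = 0.00924, edgeR). Lin28a stood at 74.8 and 76.4 CPM, higher by 2.20 ± 0.13 (adjusted p = 2.55e-05, edgeR), and Ptbp1 at 81.0 and 87.0 CPM, higher by 1.70 ± 0.13 (adjusted p = 7.47e-05, edgeR). In all, 6 of 34 tested broad regulators were called higher and 8 lower. Of 12 tested ELAV-bound mRNAs 2 were called higher, Myc and Mycn, and 4 lower, among them the axon growth protein gene Gap43, at 50.3 and 52.8 CPM against 103 and 104 CPM. Dcc was again the single NOVA-regulated gene called, with a change of -1.27 ± 0.14 (adjusted p = 0.00033, edgeR).

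Against the earlier stage, the 9.5 dpc wild-type libraries with the PI label were higher in the neuronal genes: 5 of 6 genes were called, all higher, where 8.6% of genes tested were called higher and 15.6% in either direction. Of all calls 55.2% were higher, and 78.4% with library totals, where the median change of all genes was 0.18. This comparison shares its libraries with the 2 before it and is not independent of them. The changes were 0.55 ± 0.14 for Elavl2 (adjusted p = 0.024, edgeR), 2.57 ± 0.33 for Elavl3 (0.00135) and 2.04 ± 0.16 for Elavl4 (0.000111). Nova1 changed by 0.94 ± 0.14 (adjusted p = 0.00218, edgeR) and Nova2 by 2.36 ± 0.38 (0.00375), while Elavl1 changed by 0.06 ± 0.10 (0.738). After background subtraction the change was 4.98 for Elavl3 and 5.30 for Nova2. All 12 neuron markers were also called higher, with a median of 2.14 beside 0.03 over all genes. Of 10 neural progenitor markers 5 were called higher and 1 lower, and 4 of 5 tested surface ectoderm markers were called lower. The surface ectoderm sums were 56.9 and 44.8 CPM against 222 and 230 CPM. Of 8 erythroid markers 3 were called higher and 1 lower, and of 6 mesenchyme markers 3 were called higher and 2 lower. Of 8 tested cranial ganglion and neural crest markers 4 were called higher and 3 lower. The Elavl2 call was lost without the wt 9.0 lot 1 library (adjusted p = 0.164), without the wt PI lot 1 library (0.0749) or lot 2 library (0.232) and with DESeq2 (0.0851), and the Nova2 call without the wt PI lot 2 library (0.0743). With all 11 libraries in the fit none of the 6 was called. Blocking on the lot took the count over all genes from 2046 to 3735, with the same 5 members called.

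The libraries labelled Skp1aKO and Skp1acont were each compared with wild type at 9.5 dpc. Nova2 was higher in both groups, Elavl2 was lower in Skp1acont, and no other member passed the test. In these fits all 11 libraries share the estimate of the spread. For Skp1aKO, 1 of 6 genes was called, where 36.4% of 18837 genes tested were called in either direction, 17.6% higher and 18.7% lower. For Skp1acont, 2 of 6 were called, 1 higher and 1 lower, where 36.4% were called in either direction, 19.3% higher and 17.1% lower. Of all calls 48.5% and 53.0% were higher, and 83.0% and 85.1% with library totals. The share of members called was thus not above that of all genes.

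Nova2 stood at 13.1 and 14.6 CPM in the libraries labelled Skp1aKO, at 10.8 and 10.6 CPM in those labelled Skp1acont and at 17.6 CPM in the library labelled Skp1acont PI. These are 35 to 90 reads a library, and before background subtraction all 5 libraries were above the highest wt library, at 5.86 CPM. The background would account for 12.1% to 78.2% of these reads, the highest share being that of Skp1acont lot 2. Net of background that library was not above the wt PI libraries. The change was 1.996 ± 0.33 for Skp1aKO against wt (adjusted p = 0.00483, edgeR) and 1.63 ± 0.33 for Skp1acont against wt (adjusted p = 0.0104, edgeR). With the background subtracted the changes were 2.65 (adjusted p = 0.0141) and 1.83 (0.0416). Without the wt 9.5 lot 2 library the Skp1aKO call was lost (adjusted p = 0.0545), and without either wt 9.5 library the Skp1acont call was lost (0.0649 without lot 1, 0.0833 without lot 2), as it was when only those 2 groups were fitted (0.135). Over 13 other settings the adjusted p of Nova2 ran from 1.52e-06 to 0.0545 for Skp1aKO, and over 12 from 0.000417 to 0.135 for Skp1acont.

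Elavl3 stood at 44.9 and 24.7 CPM in the libraries labelled Skp1aKO, at 39.9 and 33.8 CPM in those labelled Skp1acont and at 32.7 CPM in Skp1acont PI. The lowest of these was barely above the highest wt library, at 24.2 CPM. The changes of 0.78 ± 0.33 for Skp1aKO (adjusted p = 0.0842, edgeR) and 0.86 ± 0.33 for Skp1acont (adjusted p = 0.063, edgeR) did not pass. Elavl3 was called higher under 5 of 13 other settings in Skp1aKO (adjusted p from 0.00305 to 0.548) and under 7 of 12 in Skp1acont (0.00561 to 0.252). Elavl4 stood at 63.1 and 32.5 CPM in Skp1aKO and at 60.6 and 33.5 CPM in Skp1acont, all below the wt libraries of 9.5 dpc on this scale, with changes of -0.89 ± 0.39 (adjusted p = 0.09, edgeR) and -0.91 ± 0.39 (adjusted p = 0.0849, edgeR). In both groups lot 1 was higher than lot 2 for Elavl4. With library totals the changes of Elavl4 were -0.11 and -0.19, and the highest Skp1a-labelled library, Skp1aKO lot 1, was at 81.9 CPM, above the highest wt library at 72.8 CPM.

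Elavl2 stood at 82.2 and 62.7 CPM in Skp1aKO and at 76.2 and 48.9 CPM in Skp1acont, also below wt at 9.5 dpc on this scale. The changes were -0.86 ± 0.34 (adjusted p = 0.0675, edgeR) and -1.07 ± 0.34 (adjusted p = 0.0358, edgeR), so Elavl2 was called lower in Skp1acont alone. That call was lost under 7 of 12 other settings, with library totals (adjusted p = 0.352), no low-count filter (0.0787), the 1 CPM filter (0.133), the compared groups alone (0.203), background subtraction (0.0925) and without wt 9.5 lot 1 (0.103) or lot 2 (0.252), and ranged from 4.66e-05 to 0.352. With library totals the changes of Elavl2 were -0.06 in Skp1aKO and -0.34 in Skp1acont. Nova1 stood at 40.0 and 20.5 CPM in Skp1aKO and at 35.2 and 22.9 CPM in Skp1acont, and neither change passed (-0.68 ± 0.35, adjusted p = 0.14, and -0.73 ± 0.35, adjusted p = 0.116, edgeR). Elavl1 stood at 190 and 223 CPM in Skp1aKO, and at 182 and 72.1 CPM in Skp1acont, where the lot 2 library was the lowest of all 11. Its changes were -0.58 ± 0.45 (adjusted p = 0.311, edgeR) and -1.27 ± 0.46 (adjusted p = 0.0525, edgeR).

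With the library labelled Skp1acont lot 2 left out of the spread, the count of members called in Skp1aKO against wt went from 1 to 5. Elavl1 (-0.43), Elavl2 (-0.72) and Elavl4 (-0.74) were then called lower and Elavl3 (0.95) and Nova2 (2.11) higher. The 5 Skp1a-labelled libraries together did not overlap the 6 wt libraries for Elavl1 (lower), Elavl3 and Nova2 (higher), where 42.6% of genes tested did not overlap in either direction, 21.3% of genes being higher and 21.3% lower. With CPM by library totals Elavl1 overlapped and Elavl3 and Nova2 did not, where 45.1% of genes tested did not overlap with 37.3% higher and 7.79% lower. In Skp1aKO against wt 9.5 the change of Elavl1 was 0.24 and that of Nova1 0.10 with library totals, of opposite sign to those above, and neither passed the test. The direction of both genes there therefore rests on the scaling, and so does the size of the lower values of Elavl2 and Elavl4, and of Nova1 in Skp1acont (-0.01 with library totals).

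Ratios between family members within a library do not depend on that scaling, and here the Skp1a-labelled libraries differed from wild type. Per kilobase, Elavl3 stood at 0.515 to 0.789 of the level of Elavl4 in the 5 Skp1a-labelled libraries and at 0.115 to 0.217 in the 6 wt libraries. Nova2 stood at 0.322 to 0.741 of Nova1 in the Skp1a-labelled libraries and at 0.0312 to 0.130 in wt. After subtraction of the expected background these ranges were 0.504 to 0.749 against 0.0188 to 0.202 for Elavl3 over Elavl4, and 0.168 to 0.653 against 0 to 0.0983 for Nova2 over Nova1. Elavl3 made up 20.7% to 28.8% of the neuronal ELAV pool in the Skp1a-labelled libraries and 2.24% to 9.94% in wt. In none of these 3 measures did the libraries overlap, whichever stage or PI label wt had. Leaving out Skp1acont lot 2 narrowed the Elavl3 share to 20.7% to 23.2%. Of single genes, 42.6% did not overlap between these libraries either, and 45.1% with library totals. No such share was taken for ratios of other gene pairs. Both measures with Elavl3 use the same counts and are not independent. The ratios are descriptions chosen after their values were seen and carry no test.

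**Figure D3:**
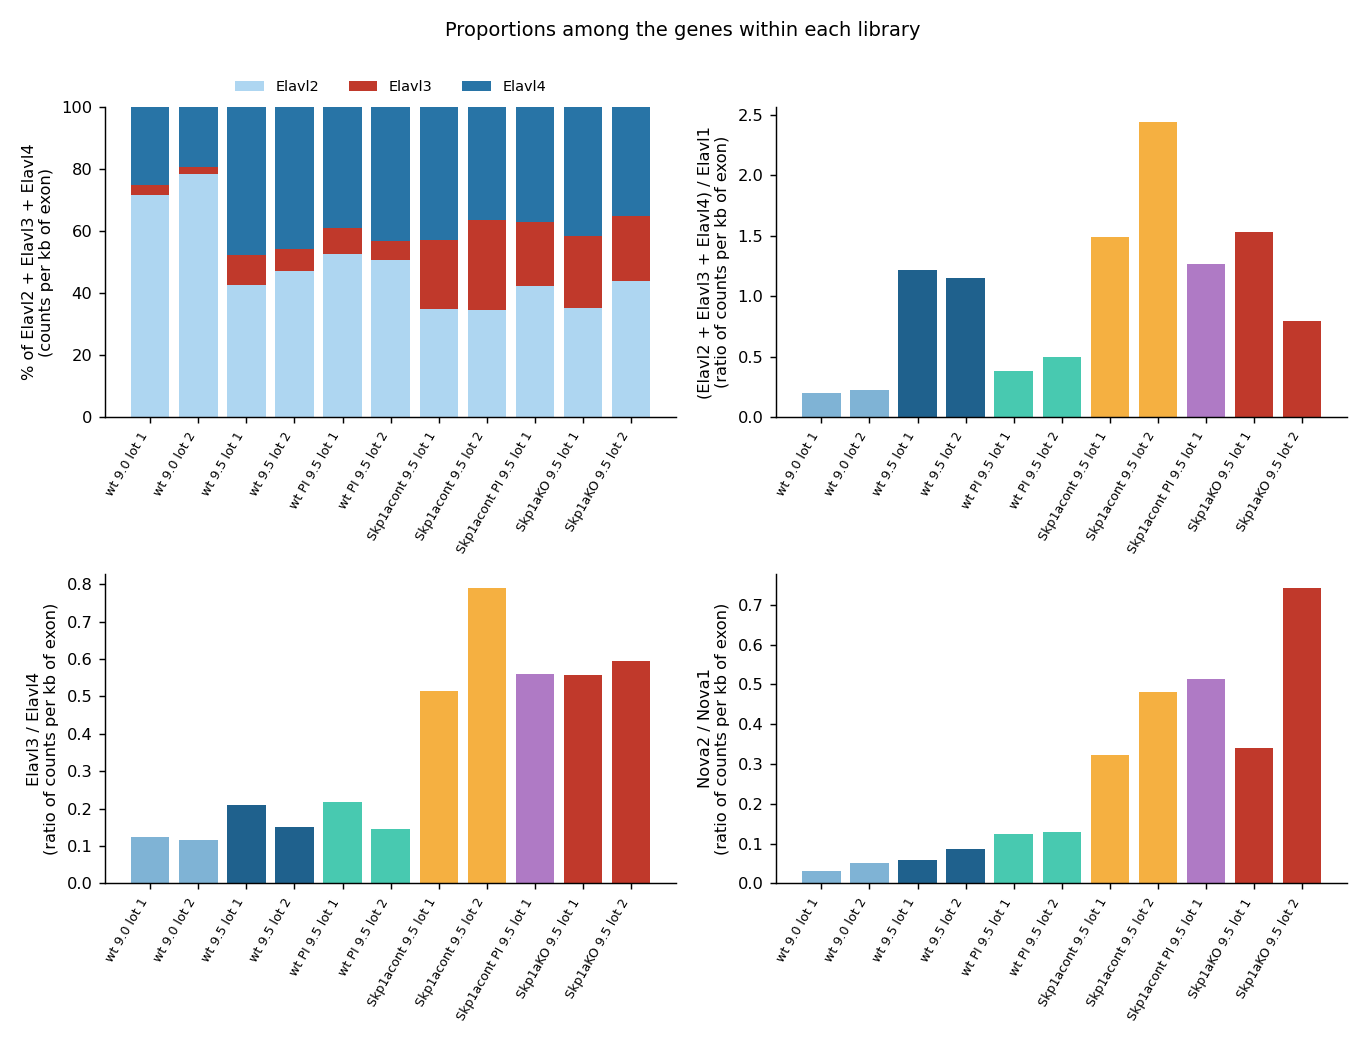
Share of Elavl2, Elavl3 and Elavl4 in their summed level per kilobase (upper left), and ratios per kilobase of the neuronal ELAV genes to Elavl1, of Elavl3 to Elavl4 and of Nova2 to Nova1, 1 bar per library. Elavl3 takes 20.7% to 28.8% in the Skp1a-labelled libraries and at most 9.94% in wt, and both lower panels show the Skp1a-labelled libraries above all wt libraries.

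The neuronal ELAV genes summed to 1.54 and 0.796 of Elavl1 per kilobase in the libraries labelled Skp1aKO, to 1.49 and 2.44 in those labelled Skp1acont and to 1.27 in Skp1acont PI. The wt libraries of 9.5 dpc, at 1.22 and 1.15, lay within that range. Most neuron markers were lower: 7 of 12 were called lower in Skp1aKO and 8 of 12 in Skp1acont, none higher. Their TMM-scaled sums were 414 and 220 CPM in Skp1aKO, 509 and 196 in Skp1acont and 358 in Skp1acont PI. In wt at 9.5 dpc they were 948 and 1000 CPM. Sums with library totals were not taken. Tubb3 went the other way in lot 1 alone, at 113 and 57.9 CPM in Skp1aKO and 159 and 50.1 in Skp1acont. Its wt level at 9.5 dpc was 93.2 and 104 CPM. Nhlh1 stood at 6.64 and 4.20 CPM in Skp1aKO and 5.32 and 0.906 in Skp1acont, against 2.20 and 2.84 in wt. The summed level of the neuronal ELAV genes was 34.7% to 59.3% of that of the markers in the 5 Skp1a-labelled libraries. In wt at 9.5 dpc it was 25.3% and 24.1%, and 28.4% and 34.0% with the PI label. The wt libraries of 9.0 dpc, at 44.98% and 46.4%, lay within the range of the Skp1a-labelled libraries. None of the 12 markers was at 0 in the Skp1a-labelled libraries. Erythroid markers, the summed level of which was 17699 and 23595 CPM in wt at 9.5 dpc, summed to 919 to 6422 CPM in the Skp1a-labelled libraries. The part of cell makeup, mitochondrial share and background in the differences of the 6 genes was not tested.

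**Figure D4:**
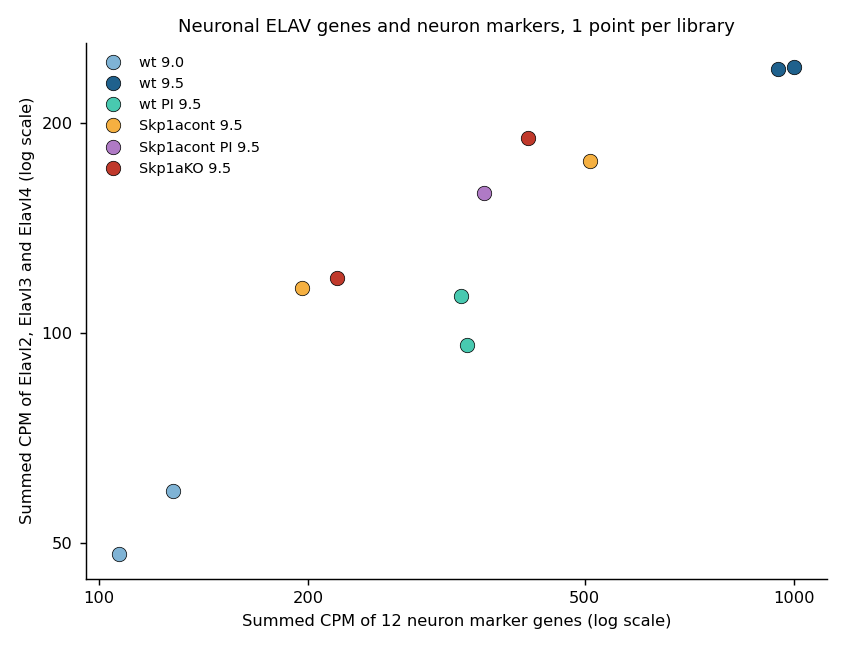
Summed CPM of Elavl2, Elavl3 and Elavl4 (y axis, log) against the summed CPM of 12 neuron markers (x axis, log), 1 point per library. The wt libraries of 9.5 dpc lie at the upper right with 240 and 241 CPM, and the 5 Skp1a-labelled libraries lie between 116 and 190 CPM, with marker sums from 196 to 509 CPM around the 339 and 332 CPM of the wt PI libraries.

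Other RNA-binding regulators were called in both directions between the Skp1a-labelled and wt groups. Of all genes tested, 36.4% were called in each of these comparisons, and the list counts below were not tested against that share. Of 11 tested other neuronal regulators, 4 were called higher and 2 lower in Skp1aKO, and 5 higher and 3 lower in Skp1acont. Rbfox3 (NeuN), a splicing regulator of mature neurons, stood at 13.7 and 11.9 CPM in Skp1aKO against 0.734 and 1.62 CPM in wt at 9.5 dpc, a change of 3.27 ± 0.47 (adjusted p = 0.00364, edgeR). Celf5 stood at 5.57 and 8.39 CPM against 0.367 and 1.89 CPM (2.38 ± 0.67, adjusted p = 0.0246, edgeR). In wt at 9.5 dpc these are 2 and 12 reads of Rbfox3 and 1 and 14 reads of Celf5. The chemoreceptor background of the Skp1aKO libraries was 7.05 and 9.19 times that of the lowest wt library. Its part in the reads of both genes is not given here. Ptbp2, the neuronal paralogue of Ptbp1, stood at 127 and 133 CPM against 459 and 457 CPM (-1.82 ± 0.37, adjusted p = 0.0089, edgeR), and Mbnl2, a splicing factor of the muscleblind family, changed by -1.12 ± 0.24 (adjusted p = 0.0113, edgeR). Of 35 broad regulators 6 were called higher and 6 lower in Skp1aKO, and 4 higher and 12 lower in Skp1acont. Their median change was -0.58 in Skp1aKO and -1.02 in Skp1acont. Fxr2, an FMRP relative, was the clearest in Skp1aKO, at 21.4 and 21.2 CPM against 3.67 and 2.84 CPM. Of 13 tested ELAV-bound mRNAs 1 was called higher and 4 lower, among them Gap43, at 38.7 and 22.3 CPM against 103 and 104 CPM. Of 10 NOVA-regulated genes 1 was called higher and 2 lower in either group. The median change of all genes tested was itself 0.24 in Skp1aKO and 0.34 in Skp1acont with this scaling, and 1.04 and 1.08 with library totals.

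Skp1aKO and Skp1acont were then compared with each other. None of the 6 genes was called, and no gene of 18837 was called by edgeR (0%), with 1308 genes at an unadjusted p under 0.05 and 95 called by DESeq2. The changes were 0.70 ± 0.45 for Elavl1 (adjusted p = 0.886, edgeR), 0.21 ± 0.33 for Elavl2 and -0.08 ± 0.32 for Elavl3. They were 0.02 ± 0.39 for Elavl4, 0.05 ± 0.35 for Nova1 and 0.37 ± 0.30 for Nova2 (adjusted p = 0.943, edgeR). For Elavl2, Elavl3, Elavl4 and Nova1 the libraries of both labels overlapped, and for Elavl1 and Nova2 those labelled Skp1aKO were above those labelled Skp1acont. Such a separation of 2 against 2 libraries allows no exact two-sided p below 0.333. Its share over all genes was not taken, so it is not read as a difference of these genes. Without the library labelled Skp1acont lot 1, Elavl1 was called higher in Skp1aKO (1.497, adjusted p = 1.53e-05, edgeR), and 5723 genes were called in all, with the lot 2 library alone for its group. Without the lot 2 library instead, none of the 6 was called while 4650 genes were.

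The library labelled Skp1acont PI was compared with the wt PI libraries. None of the 6 genes passed, where 0.441% of genes tested were called, 25.3% of them higher, or 88.8% with library totals. Elavl3 stood at 32.7 CPM against 7.93 and 6.99 CPM (2.14 ± 0.40, adjusted p = 0.0508, edgeR) and Nova2 at 17.6 CPM against 5.86 and 5.59 CPM (1.62 ± 0.36, adjusted p = 0.0602, edgeR). Elavl3 was called under 7 of 11 other settings and Nova2 under 5 of 11. Those calling both included DESeq2 size factors, library totals, DESeq2's test and the spread without Skp1acont lot 2. Over the 11 settings the changes ran from 1.89 to 2.74 for Elavl3 and from 1.57 to 2.22 for Nova2. Elavl4, at 45.6 CPM, and Elavl2, at 80.8 CPM, were above the wt PI libraries too, with changes of 0.45 ± 0.47 (adjusted p = 0.547, edgeR) and 0.34 ± 0.40 (adjusted p = 0.61, edgeR), while Nova1 (35.8 CPM) and Elavl1 (187 CPM) were below them. The lone library is assumed to vary like the other groups. Whether the PI label went with a different change in Skp1acont than in wt was also tested, as an interaction added after the values were seen. No gene of 18837 was called for it (1198 at an unadjusted p under 0.05), with differences of 1.40 ± 0.52 for Elavl2, 1.28 ± 0.52 for Elavl3 and 1.36 ± 0.60 for Elavl4 (adjusted p = 0.77 for each, edgeR).

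Ordered by mean TMM-scaled CPM over the groups, the genes fell into separate patterns. These orders rest on that scaling, and the share of all genes with such orders was not taken. With library totals the highest Skp1a-labelled library was above the highest wt library for Elavl4 (81.9 against 72.8 CPM). For Elavl1 it was so as well (335 against 296 CPM). Elavl3 was lowest in wt 9.0, then wt PI, then wt 9.5, with libraries of neighbouring groups apart, and the 3 Skp1a-labelled groups followed, overlapping each other. Elavl4 had the same lowest groups but peaked in wt 9.5, with the 3 Skp1a-labelled groups overlapping in between. Nova2 rose from wt 9.0 through wt 9.5 and wt PI to Skp1acont, Skp1aKO and Skp1acont PI, with no overlap between neighbours before background subtraction. Of the 10.6 CPM of Nova2 in Skp1acont lot 2, 8.26 CPM were expected from background, against 1.32 and 1.71 CPM in the wt PI libraries. Net of background that library was not above wt PI, so the order does not hold there. Elavl2 was apart in wt 9.5 alone, where it was highest, and its other neighbours overlapped. Nova1 was highest in wt 9.5 and wt PI, which overlapped, and Elavl1 in the 3 wt groups.

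Over the 11 libraries, the log2 CPM of Elavl2 and Elavl4 had a Pearson r of 0.87, Elavl3 and Elavl4 0.85, Elavl3 and Nova2 0.86, and Nova1 and Nova2 0.05. The genes most like Elavl4 were Onecut2 (r = 0.992), a transcription factor of early neurons, Dcx (0.981), the microtubule protein of migrating neurons, and Npr2 (0.980). Those most like Elavl2 were Draxin (0.963), a repellent axon guidance protein, Xpr1 (0.957), a phosphate exporter, and Tmem178 (0.956). Elavl3 was most like Col1a1 (0.984), a fibrillar collagen, Cacng4 (0.983), an AMPA receptor auxiliary subunit, and the Notch ligand Dll3 (0.969). Nova2 was most like Wfikkn1 (0.978), Gabrr3 (0.967) and Ndst1 (0.963), Nova1 like Stambp (0.918) and Ppp1r17 (0.913), and Elavl1 like Snx1 (0.993), Rbmxl1 (0.990) and Rad23b (0.990). The libraries share their group structure and the difference in background, and these values describe likeness over 11 points only.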

How the data were processed

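Libraries were made from poly(A) RNA, pulled down on NEBNext beads after column purification (RNeasy), per the labels' protocols. The authors deposited 1 table of read counts per gene, whole numbers that were not normalized. The submitters' processing notes name Trim Galore 0.6.7 and the mouse build GRCm38, while aligner, counter and strandedness are not given in the sources used. Of 12 labelled samples, 11 have a column, and no other column was present.

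The test was that of edgeR 4.0.16 under R 4.3.3 (TMM scaling, filterByExpr by group, robust quasi-likelihood fit, two-sided), with Benjamini-Hochberg adjustment over all genes tested. Comparisons among wt groups were fitted on the 6 wt libraries (13126 genes, biological coefficient of variation 19.6%), and those with Skp1a labels on all 11 libraries (18837 genes, 35.3%). DESeq2 1.42.0, other scalings, filters and sample sets were alternatives. Replicates are lots, and lot numbers paired the wt libraries: deviations of same-lot libraries from their group means had correlations of 0.343, 0.305 and 0.297 between wt groups, a pairing taken from the data, as the labels only name the lot. In pairs with a Skp1a label they were -0.01 to 0.18.

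Levels per kilobase use GENCODE M21 union exon lengths. Background counts were expected from each library's median over 1496 chemoreceptor genes and exon length, and subtracting them was an alternative chosen after seeing the data. The fits were tested on simulated data. Genes named are the 6 members, at most the 2 higher and 2 lower called genes of smallest p per list, and the 3 genes most correlated with each member, of which 1 is not reported here. Members and lists were chosen with earlier results of these data known. At 3 reads, the detection floor was 0.258 to 1.29 CPM of the library totals, and intervals cover counting error only.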

Additional observations from a re-analysis of the deposited data

How the results depend on the processing

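Of the members called, the count in wt 9.5 against wt 9.0 dpc was 5 and fell to 2 where all groups shared the spread. With all groups it fell from 3 to 0 in wt PI against wt 9.5, and from 5 to 0 in wt PI against wt 9.0. The cause was not tested. For all genes that fit called 302, 13 and 2 genes in these comparisons, against 4161, 3669 and 2046, and DESeq2 called 2363, 2162 and 1080. Leaving out 1 library each gave 4 to 5, 3 to 3 and 3 to 5 members, and 2503 to 3391, 1289 to 3188 and 320 to 1124 genes.

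With the lot as a replicate block, all genes called were 5469, 5111 and 3735 in the wt comparisons, and the members called stayed at 5, 3 and 5. The block gave 1 member in Skp1aKO against wt, 3 in Skp1acont against wt (Elavl3 added, adjusted p = 0.0395, edgeR), and 0 in the other 2 comparisons, where it called 1 and 17 genes. It changed no other member call.

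For Skp1aKO against wt the member count of 1 became 2 with DESeq2 size factors, library totals or background subtraction, 3 with the compared groups only, 5 without Skp1acont lot 2 in the spread, and 0 to 1 without 1 library each. All genes called were 11548 without Skp1acont lot 2, 3681 after background subtraction and 281 to 1716 without 1 library each, against 6852. For Skp1acont against wt the count of 2 became 4 with DESeq2 size factors or DESeq2's test, 1 with no low-count filter, 0 with the compared groups only and 0 to 5 without 1 library each. All genes called went from 6866 to 3999 after background subtraction, 0 with the compared groups only and 13 to 13512 without 1 library each. For Skp1aKO against Skp1acont the count of 0 became 0 to 1 without 1 library each, and 0 to 5723 genes were called there. For all genes it was 1 with size factors, 4 with library totals, 95 with DESeq2 and 5 with either other filter. For Skp1acont PI against wt PI the count of 0 became 2 with size factors, library totals or DESeq2, 1 with the 1 CPM filter or background subtraction, 5 with the compared groups only and 3 without Skp1acont lot 2. All genes called were there 610, 1174, 1810, 163, 584, 7998 and 7347, against 83, and 1 without either wt PI library.

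The neuronal ELAV to Elavl1 ratio taken from counts, not per kilobase, was 0.155 in wt 9.0, 0.78 in wt 9.5, 0.297 in wt PI, 0.769 in Skp1aKO, 1.29 in Skp1acont and 0.85 in Skp1acont PI, lower than per kilobase because Elavl1 has the longest exons. No member called in the tests of the report changed sign under any setting run. Elavl1 in Skp1aKO against wt was not called there, and was lower (-0.43) and called without Skp1acont lot 2 in the spread but 0.24 and not called with library totals. Leaving out the lone Skp1acont PI library could not be fitted. Depth limits Elavl3 and Nova2 at 9.0 dpc, with 14 and 13 reads over both libraries.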
